A study of Drosophila melanogaster and Drosophila simulans and Drosophila yakuba with 24 samples.

Results

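The 10 genes described here encode the core of the machinery by which neurons release synaptic vesicles: Syt1, cpx, nSyb, Snap25, Syx1A, Rop, unc-13, brp, Syn and Csp. They were picked by name for this role, with earlier results of these data known, and were matched by symbol to 10 of the 13898 genes in a table of raw read counts. All 10 passed the filter on low counts. The study examined wild-type Canton S females of Drosophila melanogaster, 10 days old. Pools of flies were dissected into heads, thoraces, abdomens without viscera (eviscerated abdomens) and ovaries. Total RNA depleted of ribosomal RNA was sequenced in 3 replicate libraries per tissue. No genotype, allele or treatment differed among these 12 libraries, and the study's methods describe the replicates as biologically independent.

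At a synapse, a vesicle fuses with the plasma membrane when a SNARE on the vesicle zips together with SNAREs on the target membrane. Sec1/Munc18 and Unc13 proteins prepare this assembly, complexin holds and then promotes it, synaptotagmin triggers it when calcium enters, and an active zone scaffold places vesicles beside calcium channels. Related SNAREs and Sec1/Munc18 proteins serve membrane traffic in all cells, and some release proteins have also been studied outside neurons, so the members need not share a single tissue pattern.

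Levels are given as CPM, counts scaled to library size with TMM factors, and as TPM, which also divides by gene length, where genes are compared with each other. The reads counted on genes came to 14040598 to 19208152 per head library, 8087981 to 13630001 per thorax library, 7884586 to 11600876 per eviscerated abdomen library and 22247599 to 32498809 per ovary library. The labels were checked with marker lists summed as TPM. Neuron markers (13 genes) summed to 1965 to 2412 TPM in head, 277.5 to 435 in thorax, 25.7 to 30.2 in the eviscerated abdomen and 5.90 to 6.39 in ovary, and none of the 13 was at 0 in all libraries of a tissue. Germline markers (8 genes, none at 0) summed to 79.7 to 93.8 TPM in head, 80.2 to 86.8 in thorax, 334 to 1016 in the eviscerated abdomen and 1795 to 1969 in ovary. Follicle cell markers (8 genes, none at 0) summed to 4533 to 8149 TPM in the eviscerated abdomen and 18525 to 19373 in ovary, so the eviscerated abdomen libraries held transcripts of ovarian markers, at unequal levels in the 3 libraries. In these bulk samples, fewer cells of a type and less RNA per cell cannot be told apart.

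On TMM-scaled CPM all 10 genes were highest in head. Head over thorax, 10 of 10 were called higher at an adjusted p of 0.05, against 25.4% of all 11188 genes tested. Head over eviscerated abdomen, 10 of 10 were called higher, against 39.2% of all genes, and head over ovary 10 of 10, against 46.4%. The median log2 fold change of the members was 2.28 over thorax, 5.33 over eviscerated abdomen and 9.24 over ovary, while that of all genes tested was 0.17, 0.08 and 0.25. The members differed among themselves, less over thorax than over eviscerated abdomen: over thorax they ran between 0.80 for Rop and 3.22 for nSyb, and over eviscerated abdomen between 1.12 for Csp and 9.08 for Syt1. Over ovary Csp, Rop, unc-13 and Syx1A had 1.01, 2.00, 2.38 and 2.85, and the rest 7.62 (Syn) or more. Outside head, 8 of 10 were called higher in thorax than in the eviscerated abdomen (36.9% of all genes) and 8 of 10 higher in thorax than in ovary (43.7%). Eviscerated abdomen over ovary gave 6 of 10 (35.9%). That count was 4 on log2(RPKM + 0.1) and on log2(TPM + 1), and 2 on log2(RPKM + 1). Of all genes, 1770, 2696 and 1464 were called higher on these scales in that order, against 4017 in the main fit. The calls lost on 1 or more of these scales were those of Syt1, Snap25, brp and Syn. These rest on 73, 36, 40 and 484 reads in the eviscerated abdomen. In the 6 comparisons 0 members were called lower by edgeR's quasi-likelihood test, also at an unadjusted p under 0.05 (0) and by DESeq2 (0). Other scalings and leaving out single libraries called some lower outside head, and log2(RPKM + 0.1) also called Csp lower head over ovary (-1.27). Eviscerated abdomen over ovary 3 were called lower with library size alone, 3 on log2(TPM + 1) and 4 on log2(RPKM + 0.1). In the same fits 4619, 5044 and 7422 of all genes were called lower. Without eviscerated abdomen replicate 2, 1 member was called lower, and without ovary replicate 2, 2 were. With all libraries 32.6% of all genes were called lower there. Thorax over ovary 1 was called lower with library size alone and 2 on log2(RPKM + 0.1), beside 5644 and 6259 of all genes.

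The authors' RPKM values use other library totals, and on log2(RPKM + 0.1) the median of all genes lay at -1.95 head over ovary and -0.73 head over thorax. There 1240 genes were called higher and 6014 lower head over thorax, and 3085 higher and 6945 lower head over ovary. Head over eviscerated abdomen 3495 were called higher and 4305 lower. On that scale 7 of 10 members were called higher in head than in thorax, 10 of 10 higher than in the eviscerated abdomen and 6 of 10 higher than in ovary, where 1, Csp, was called lower. By mean RPKM 8 of 10 members were highest in head. Measured from the median of all genes in the same fit, all 10 members lay above it in each of the 3 head comparisons, under the main scaling and under DESeq2, library size alone, upper quartile factors, TPM and both RPKM fits.

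**Figure D1:**
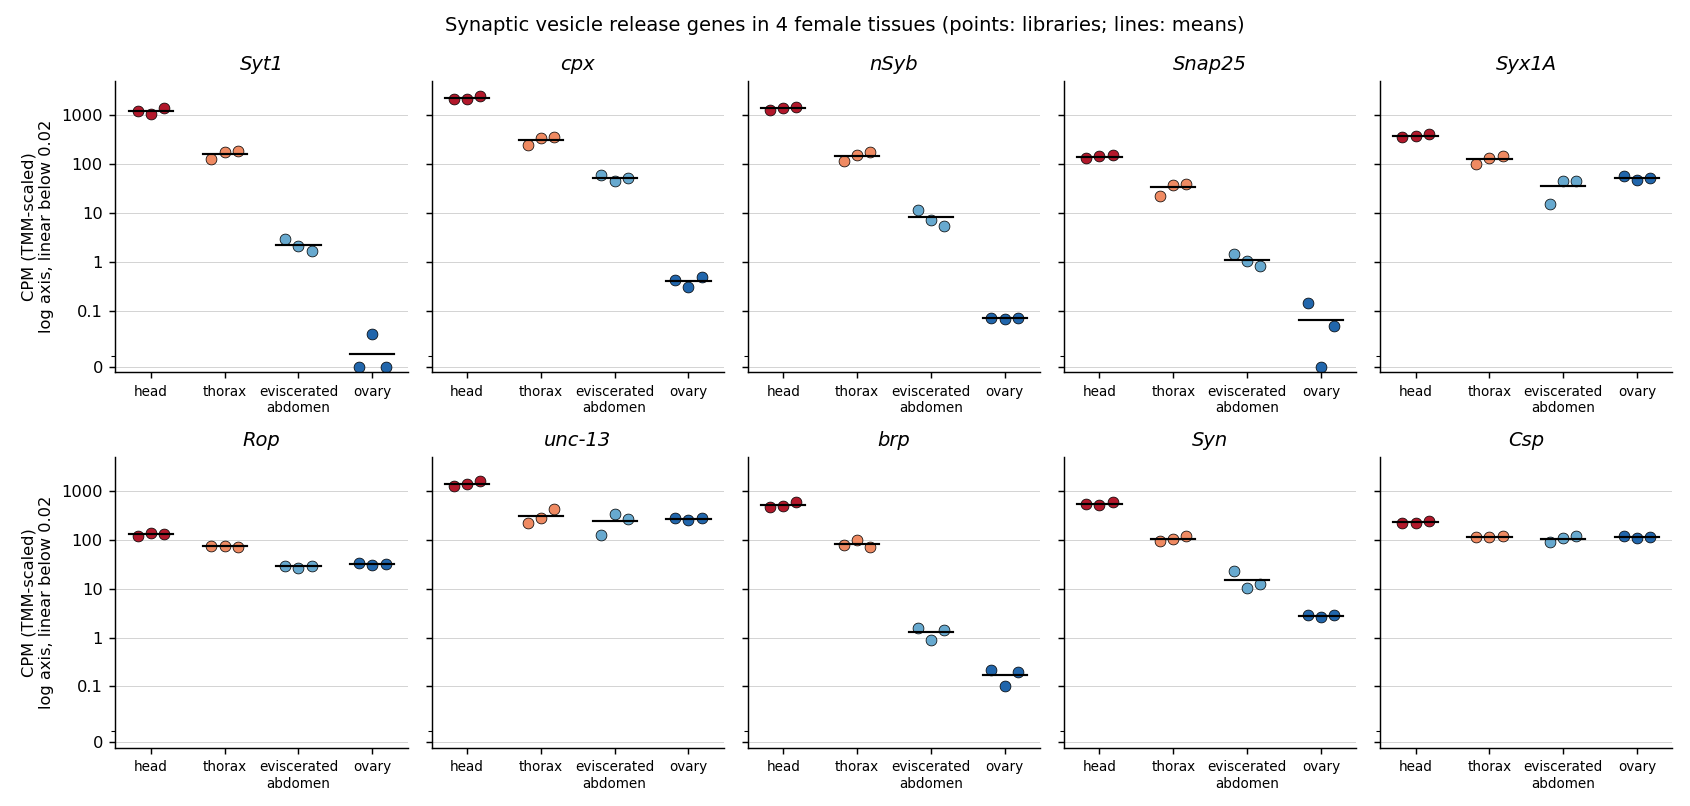
Level of each gene in every library, as TMM-scaled CPM on an axis that is logarithmic above 0.02, with tissues from head (left) to ovary (right), points for the 3 libraries and a line at their mean. Syt1, cpx, nSyb, Snap25, brp and Syn step down through thorax and eviscerated abdomen to under 3 CPM in ovary, whereas Syx1A, Rop, unc-13 and Csp level off between 26.9 and 333 CPM in the eviscerated abdomen and ovary, except for Syx1A at 15.6 CPM in the eviscerated abdomen replicate 1.

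Syt1 (FBgn0004242), the calcium sensor on the vesicle, had 1235, 1040.5 and 1395 CPM in head, 129, 173 and 188 in thorax, 2.92, 2.14 and 1.66 in the eviscerated abdomen, and 0, 0.034 and 0 in ovary. The tissues did not overlap, and the ovary value rests on 1 read in all 3 libraries together, against 55556 reads in head. The log2 fold change was 2.91 ± 0.23 (SE) head over thorax and 9.08 ± 0.32 head over eviscerated abdomen, with adjusted p of 5.16e-07 and 1.2e-10. For head over ovary the pooled ratio was 139863 with an exact 95% interval of 25102 to 5524400, which covers counting error only.

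cpx (FBgn0041605) encodes complexin, which binds assembled SNAREs. It had 2181.9, 2179 and 2476 CPM in head, 250.3, 334 and 367 in thorax, 58.8, 44.4 and 51.1 in the eviscerated abdomen, and 0.428, 0.306 and 0.483 in ovary. The 4 tissues formed 4 separate steps, with log2 fold changes of 2.85 ± 0.19 head over thorax, 5.47 ± 0.22 head over eviscerated abdomen and 12.41 ± 0.30 head over ovary (SE, largest adjusted p = 1.28e-07). Per gene length, cpx stood at 8.50 TPM and Syt1 at 0.355 TPM in the eviscerated abdomen, against 514 and 270 TPM in head. In the RefSeq annotation (Release 6 plus ISO1 MT) Nepl11 overlaps cpx, and it averaged 90.1 CPM in head, 105 in thorax, 103 in the eviscerated abdomen and 0.519 in ovary. Such overlaps were read from the start and end of each gene, and exons were not compared. The use of strand in counting is not given in the sources used here. Whether such pairs shared reads was not tested.

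Among the SNAREs, nSyb (FBgn0013342), the synaptobrevin of synaptic vesicles, had 1263, 1405 and 1490.0 CPM in head, 117, 151 and 178 in thorax, 11.7, 7.29 and 5.33 in the eviscerated abdomen, and 0.0713, 0.0681 and 0.0724 in ovary. Every tissue was separate from the next, and the ovary values rest on 8 reads in all. Its log2 fold change of 3.22 ± 0.25 (SE) was the highest of the members head over thorax, followed by 7.41 ± 0.30 head over eviscerated abdomen and 14.12 ± 0.42 head over ovary (largest adjusted p = 3.49e-07).

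Snap25 (FBgn0011288), a SNARE of the presynaptic membrane, had 131, 144 and 153 CPM in head, 22.6, 37.8 and 39.3 in thorax, 1.46, 1.03 and 0.828 in the eviscerated abdomen, and 0.143, 0 and 0.0483 in ovary. Again no tissues overlapped. The log2 fold changes were 2.11 ± 0.25 head over thorax, 6.99 ± 0.35 head over eviscerated abdomen and 10.85 ± 0.42 head over ovary (SE, largest adjusted p = 1.83e-05), the last on 8 ovary reads.

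Syx1A (FBgn0013343), the syntaxin that pairs with Snap25 and that fly embryos also need for cellularization, behaved differently. It had 355, 367 and 416 CPM in head, 100.2, 131 and 146 in thorax, 15.6, 44.8 and 44.98 in the eviscerated abdomen, and 57.5, 47.4 and 53.1 in ovary. Head and thorax were the highest tissues, and ovary stood above all 3 eviscerated abdomen libraries, but that last difference, a log2 fold change of -0.59 ± 0.30 (SE) eviscerated abdomen over ovary, was not called (adjusted p = 0.102). It was called without eviscerated abdomen replicate 2 (-0.82) or ovary replicate 2 (-0.85), with library size alone (-0.87), and on log2(TPM + 1) (-1.16) and log2(RPKM + 0.1) (-2.66). The log2 fold change was 1.60 ± 0.30 head over thorax, 3.43 ± 0.33 head over eviscerated abdomen and 2.85 ± 0.32 head over ovary (largest adjusted p = 0.000964). On log2(RPKM + 0.1) the calls over thorax (0.64, adjusted p = 0.11) and over ovary (0.57) were lost. Thorax over ovary it was 1.25 ± 0.30 (adjusted p = 0.00172), a call lost with library size alone (0.57, adjusted p = 0.115), on log2(TPM + 1) (0.81, adjusted p = 0.0756) and on log2(RPKM + 0.1) (-0.07, adjusted p = 0.853). eIF4EHP, which overlaps Syx1A in the annotation, averaged 144 CPM in head, 71.3 in thorax, 54.5 in the eviscerated abdomen and 98.1 in ovary.

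Of the factors that prepare the SNAREs, Rop (FBgn0004574), the Sec1/Munc18 partner of syntaxin, had 117, 135 and 133 CPM in head, 73.2, 76.3 and 72.6 in thorax, 29.3, 26.9 and 29.6 in the eviscerated abdomen, and 33.5, 30.8 and 32.03 in ovary. The 4 tissues did not overlap, yet the whole range from lowest to highest library was far narrower than that of Syt1 or nSyb. Its log2 fold change was 0.80 ± 0.12 (SE) head over thorax, the lowest of the members, but -0.17 on log2(RPKM + 0.1). It was 2.17 ± 0.12 head over eviscerated abdomen, and 2.00 ± 0.12 head over ovary where log2(RPKM + 0.1) gave -0.28 (largest adjusted p = 0.000114). Eviscerated abdomen over ovary it was -0.17 ± 0.12 and not called (adjusted p = 0.219), but called at -0.38 without ovary replicate 2 and at -0.47 with library size alone. On log2(TPM + 1) and log2(RPKM + 0.1) it was called at -0.63 and -2.11, and upper quartile factors gave 0.052, not called.

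unc-13 (FBgn0025726), which primes docked vesicles, had 1278, 1374 and 1569.7 CPM in head, 215, 283 and 424 in thorax, 126, 333 and 261 in the eviscerated abdomen, and 283, 252 and 275 in ovary. Head stood alone, and the other tissues overlapped. The log2 fold change was 2.19 ± 0.32 head over thorax, 2.55 ± 0.32 head over eviscerated abdomen and 2.38 ± 0.32 head over ovary (SE, largest adjusted p = 0.000106), the last lost on log2(RPKM + 0.1) at 0.099 (adjusted p = 0.775). By edgeR's quasi-likelihood test none of the comparisons among thorax, eviscerated abdomen and ovary was called, with log2 fold changes of 0.36 thorax over eviscerated abdomen (adjusted p = 0.305), 0.19 thorax over ovary (adjusted p = 0.573) and -0.17 eviscerated abdomen over ovary (adjusted p = 0.637). Their standard errors were all 0.31. By limma on log2(RPKM + 0.1) all 3 were called, at 1.05 thorax over eviscerated abdomen (adjusted p = 0.00814), -1.17 thorax over ovary (adjusted p = 0.00281) and -2.22 eviscerated abdomen over ovary (adjusted p = 5.04e-06).

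brp (FBgn0259246) encodes Bruchpilot, the scaffold of the T-bar at fly active zones. It had 465, 503 and 599 CPM in head, 79.4, 98.4 and 72.6 in thorax, 1.55, 0.871 and 1.42 in the eviscerated abdomen, and 0.214, 0.102 and 0.193 in ovary. All tissues were separate. The log2 fold changes were 2.64 ± 0.19 head over thorax, 8.69 ± 0.27 head over eviscerated abdomen and 11.48 ± 0.31 head over ovary (SE, largest adjusted p = 2.36e-07), and the step of 8.69 was the nearest to that of Syt1.

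Of the vesicle-associated proteins, Syn (FBgn0004575), the synapsin that tethers vesicles in reserve, had 533, 515 and 599.6 CPM in head, 93.0, 104 and 121 in thorax, 22.6, 10.46 and 12.3 in the eviscerated abdomen, and 2.85, 2.62 and 2.85 in ovary. The tissues did not overlap, and Syn kept 315 reads in ovary, the most of the 6 members that were low there. Its log2 fold change was 2.37 ± 0.24 head over thorax, 5.18 ± 0.27 head over eviscerated abdomen and 7.62 ± 0.30 head over ovary (SE, largest adjusted p = 3.88e-06). Timp overlaps Syn in the annotation and averaged 82.9 CPM in head, 60.6 in thorax, 44.3 in the eviscerated abdomen and 12.5 in ovary.

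Csp (FBgn0004179), the cysteine string protein that chaperones SNAREs on the vesicle together with Hsc70, had 222, 221 and 246 CPM in head, 112, 115 and 117 in thorax, 89.6, 107 and 119.9 in the eviscerated abdomen, and 122, 109 and 112 in ovary. It was the flattest member, with head above the rest and the other tissues overlapping. The log2 fold change was 1.00 ± 0.14 head over thorax, 1.12 ± 0.14 head over eviscerated abdomen and 1.01 ± 0.14 head over ovary (SE, largest adjusted p = 6.13e-05). On log2(RPKM + 0.1) the first was 0.034 and not called (adjusted p = 0.909), and the last -1.27. Thorax over eviscerated abdomen it was 0.12 ± 0.14 (adjusted p = 0.432), thorax over ovary 0.0052 ± 0.14 (adjusted p = 0.973) and eviscerated abdomen over ovary -0.12 ± 0.14 (adjusted p = 0.46), and none was called by edgeR's quasi-likelihood test. DESeq2 called Csp higher thorax over eviscerated abdomen (0.33, adjusted p = 0.00145) and thorax over ovary (0.33, adjusted p = 0.000861). Thorax over ovary library size alone called it lower (-0.68, adjusted p = 0.000843), as did log2(RPKM + 0.1) (-1.30, adjusted p = 7.46e-05). Eviscerated abdomen over ovary it was called lower with library size alone (-0.41, adjusted p = 0.0246), on log2(TPM + 1) (-0.61, adjusted p = 0.0131) and on log2(RPKM + 0.1) (-2.09, adjusted p = 3.13e-07), so the order of these 3 tissues for Csp depends on the scaling.

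**Figure D2:**
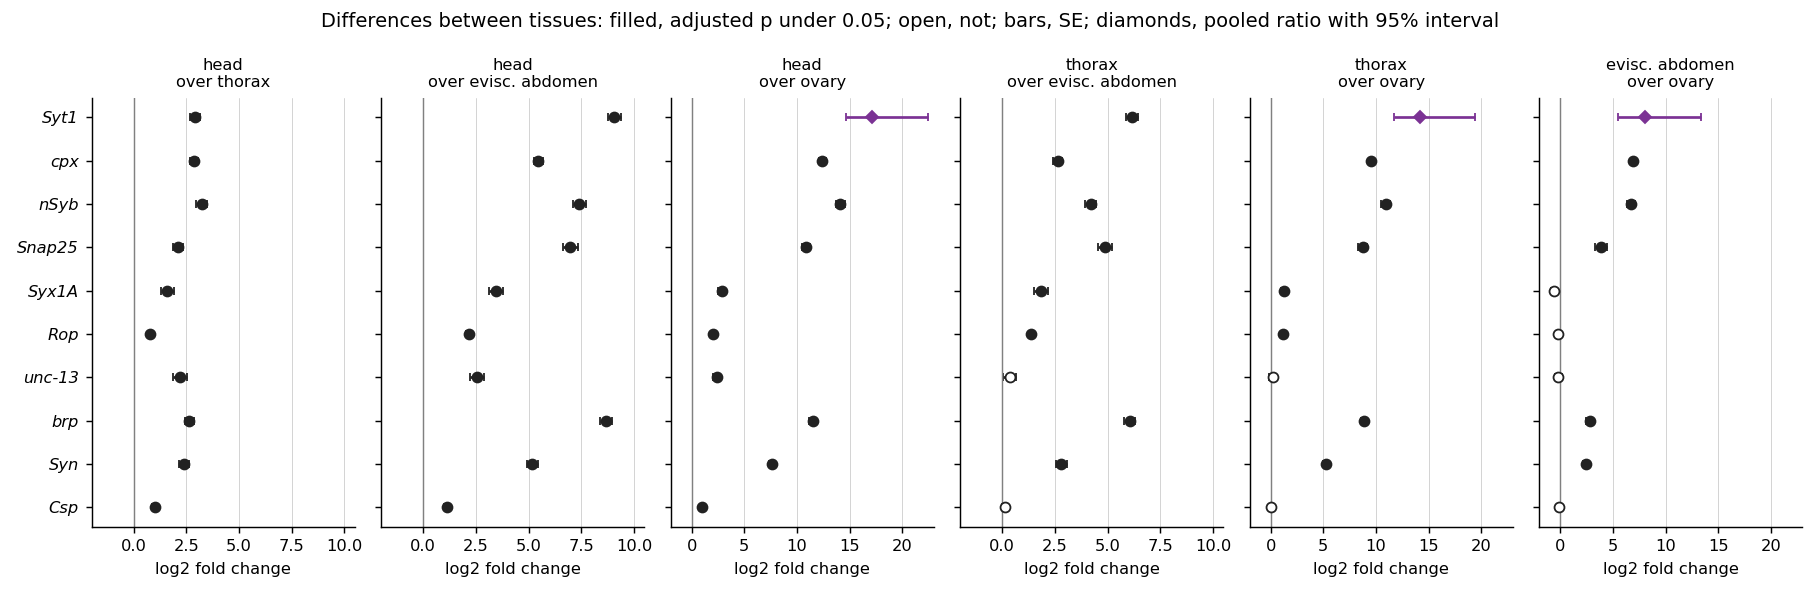
Log2 fold change of each gene (rows) in the 6 pairs of tissues (panels), with bars of 1 SE, filled points for an adjusted p under 0.05 and open points otherwise, and diamonds with 95% counting intervals for Syt1 over ovary, which had 1 read there. All points of the 3 head panels are filled and right of 0 (on the authors' RPKM scale Rop turns negative over thorax and ovary, and Csp over ovary), and the 8 open points belong to Syx1A, Rop, unc-13 and Csp.

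Eviscerated abdomen replicate 1 stood apart from the other 2 libraries of its tissue in opposite ways for different members. Syx1A was 15.6 CPM there against a mean of 44.9 in the other 2, and unc-13 126 against 297. Csp was 89.6 against 113, while Rop was nearly level at 29.3 against 28.3. Syn was 22.6 against 11.4, nSyb 11.7 against 6.31, Snap25 1.46 against 0.929 and Syt1 2.92 against 1.90. For brp the values were 1.55 against 1.15, and for cpx 58.8 against 47.7. The same library had the lowest sums of germline markers (334 TPM, against 1016 and 850.2) and of follicle cell markers (4533 TPM, against 8149 and 6587). The part of ovarian RNA in the eviscerated abdomen values of Syx1A, unc-13, Rop and Csp was not tested. Without replicate 1, eviscerated abdomen over ovary gave a log2 fold change of -0.24 for Syx1A and 0.13 for unc-13, neither called (adjusted p = 0.199 and 0.65).

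Compared per gene length, the make-up of the release transcripts differed by tissue. In head the order was nSyb (676 TPM), cpx (514), Syt1 (270), Syx1A (268), Syn (188), unc-13 (154), Csp (143), Snap25 (127), Rop (96.7) and brp (83.9). The libraries of Syt1 and Syx1A overlapped, as did each next pair along the run Syn, unc-13, Csp and Snap25. nSyb ranked 203 of the 13885 genes detected in head. In thorax Syx1A led with 70.2 TPM, level within its spread with nSyb (57.6), and nSyb, cpx and Csp overlapped in turn. In eviscerated abdomen and in ovary Csp led, with 49.2 and 73.8 TPM, and the 4 highest members in both were Csp, Syx1A, unc-13 and Rop.

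Together these 4, grouped after their values had been seen and so given as a description, summed to 662 TPM in head, 196 in thorax, 105 in the eviscerated abdomen and 169 in ovary. The other 6 summed to 1859, 205, 16.2 and 1.21 TPM in the same order of tissues. The share of the 4 in the members' summed TPM was 26.0 to 26.6% in head, 48.1 to 51.5% in thorax, 78.0 to 89.2% in the eviscerated abdomen and 99.3% in all ovary libraries. These ranges did not overlap between any tissues. The share of Syx1A lay between 10.6 and 10.7% in head but between 8.39 and 18.3% in the eviscerated abdomen, and that of nSyb between 26.0 and 28.1% in head but between 1.47 and 4.34% in the eviscerated abdomen.

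**Figure D3:**
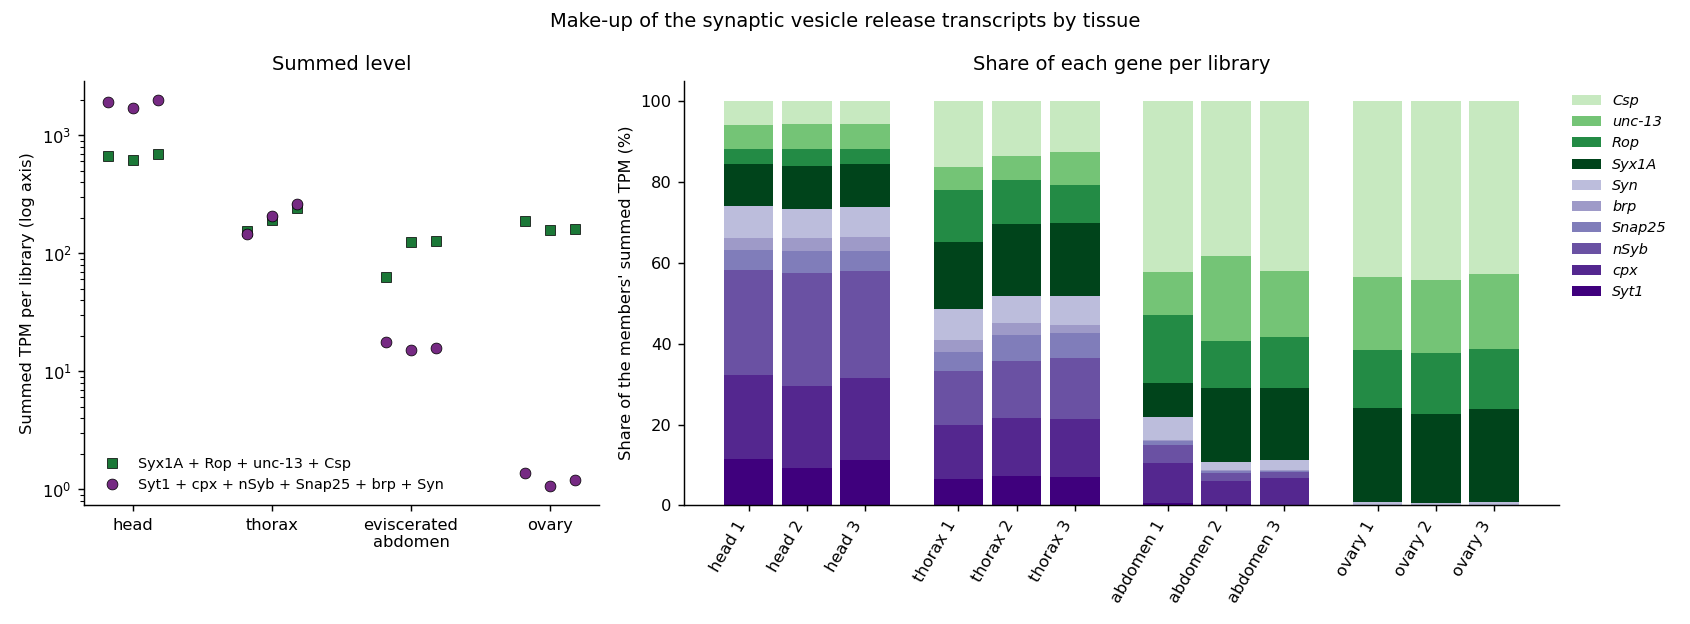
Left, summed TPM per library (log axis) of Syx1A, Rop, unc-13 and Csp (squares) and of the other 6 genes (circles); right, the share of each gene in the summed TPM of all 10, with a bar per library and tissues from head to ovary. The squares stay between 62.6 and 701 TPM, while the circles run between 1.06 TPM in an ovary library and 1978 TPM in a head library.

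Set against elav, an RNA-binding protein gene used as a marker of neurons, the members fell into different classes in thorax. The ratio of CPM to that of elav was 2.42 to 2.69 in head against 1.26 to 1.69 in thorax for Syt1, and 2.76 to 3.26 against 1.15 to 1.60 for nSyb. For cpx, brp and Syn the ratio was likewise higher in all head libraries than in all thorax libraries. Snap25 and unc-13 overlapped between the 2 tissues, with 0.285 to 0.334 in head and 0.220 to 0.353 in thorax for Snap25. Syx1A, Rop and Csp went the other way, with ratios for Rop of 0.248 to 0.314 in head and 0.598 to 0.715 in thorax. In eviscerated abdomen elav itself was at 38.0 CPM, against 475.5 in head, while the ratio of Syt1 to elav was 0.037 to 0.098 and that of brp 0.022 to 0.052, so these fell further than elav did. The 13 neuron markers had log2 fold changes of 3.65 to 8.68 head over eviscerated abdomen, with a median of 7.07. elav lay at the low end of that range, and Syt1 and brp had 9.08 and 8.69. cpx had a ratio to elav of 1.13 to 1.97 in the eviscerated abdomen, against 4.61 to 5.06 in head. Nepl11, whose span overlaps that of cpx, averaged 103 CPM in the eviscerated abdomen, and whether the pair shared reads was not tested. These ratios are descriptions, and the cause of their differences was not tested.

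**Figure D4:**
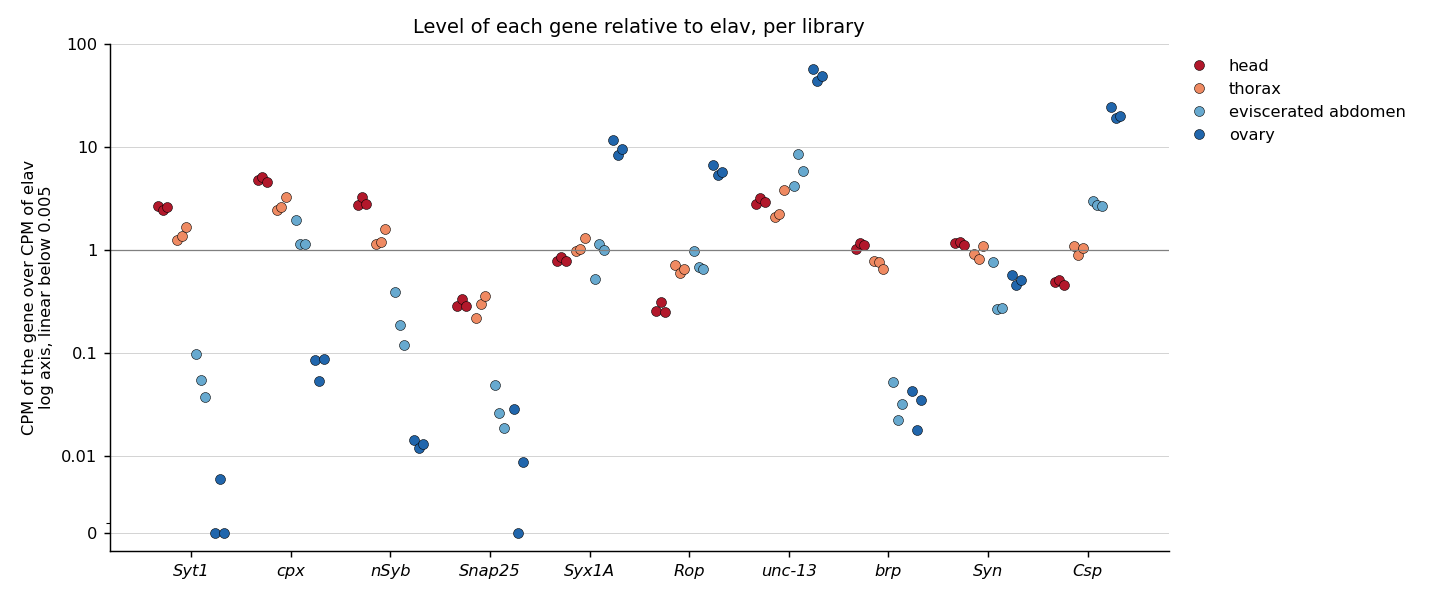
CPM of each gene divided by the CPM of elav in the same library, on an axis that is logarithmic above 0.005, with colours for the 4 tissues and a grey line at 1. Without division by gene length, in ovary unc-13 stands at 44.1 to 56.9 times elav and Csp at 19.04 to 24.6 times, while Syt1 lies at 0 in 2 of 3 ovary libraries.

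Several members have a relative that serves general membrane traffic, and Syb, Snap24, Syx5 and Slh were spread more evenly than the members they resemble. Syb, the general synaptobrevin, had 118 to 124 TPM in head, 114 to 172 in thorax, 117 to 139 in the eviscerated abdomen and 110.2 to 114 in ovary. nSyb accordingly made up 84.4 to 85.2% of the nSyb and Syb transcripts in head, 23.01 to 32.8% in thorax, 1.49 to 2.89% in the eviscerated abdomen and 0.031 to 0.034% in ovary. Snap24, the SNAP-25 relative, had 63.7 to 75.5 TPM in head and 56.2 to 63.7 in ovary, and the share of Snap25 in the pair was 63.8 to 65.6% in head, 25.5 to 39.4% in thorax, 1.25 to 2.43% in the eviscerated abdomen and at most 0.215% in ovary. In both pairs the general form was the more abundant in all libraries but those of head.

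Syx5 and Slh, a syntaxin and a Sec1/Munc18 protein of traffic between endoplasmic reticulum and Golgi, gave a narrower range of shares. Syx1A made up 73.3 to 74.8% of the Syx1A and Syx5 sum in head, 41.1 to 53.3% in thorax, 10.9 to 22.8% in the eviscerated abdomen and 28.1 to 31.98% in ovary. Rop made up 76.4 to 78.2% of the Rop and Slh sum in head, 59.2 to 62.8% in thorax, 18.2 to 21.9% in the eviscerated abdomen and 44.95 to 48.6% in ovary, so both shares were lowest in the eviscerated abdomen. Of the plasma membrane relatives, Syx4 averaged 13.6 TPM in head, 8.88 in thorax, 13.6 in the eviscerated abdomen and 2.01 in ovary. Its log2 fold change head over ovary was 2.81, near the 2.85 of Syx1A. The share of Syx1A in the Syx1A and Syx4 sum was 94.7 to 95.4% in head and 94.2 to 96.3% in ovary. It was 88.5 to 88.9% in thorax and 29.5 to 69.0% in the eviscerated abdomen. Head over ovary, no difference was called for Syb (adjusted p = 0.255), Syx5 (0.413), Slh (0.91) and Vps45 (0.0818), and that of Snap24, a log2 fold change of 0.29 (adjusted p = 0.0423), was smaller than the move of the median of all genes on the RPKM scale. Snap29 averaged 41.1 TPM in head and 65.3 in ovary, and Vps45 20.1 and 25.4. The synaptotagmins Syt4 and Syt7 instead fell in the same order of tissues as Syt1. Means for Syt4 were 146 TPM in head, 20.5 in thorax, 0.947 in the eviscerated abdomen and 0.0205 in ovary. For Syt7 they were 58.0, 8.93, 0.927 and 0.333, and its fall was smaller, with 67 ovary reads against 1 for Syt1.

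**Figure D5:**
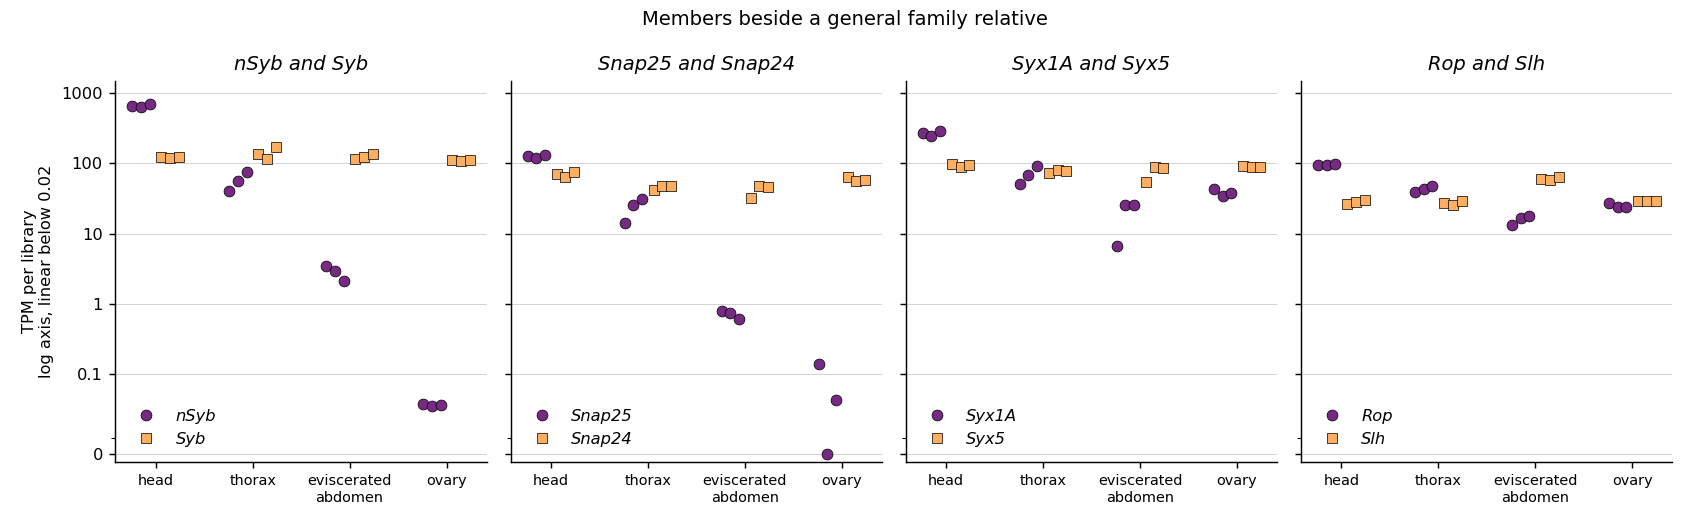
TPM per library of a member (circles) and of a general relative (squares) for 4 pairs, on an axis that is logarithmic above 0.02, with tissues from head to ovary. The squares of Syb stay between 110.2 and 172 TPM in all 12 libraries while nSyb runs between 708 and 0.034 TPM, and Rop lies above Slh in head and thorax and below it in the eviscerated abdomen and ovary.

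The rest of the vesicle cycle was read from 3 further lists. Of 23 other genes of docking, priming and calcium sensing, 20 were called higher and 2 lower (Nsf2 and Frq2, the last named after its values had been seen) head over thorax, where 16.5% of all genes were called lower. Head over eviscerated abdomen 22 were higher and 0 lower (35.8% of all genes lower), and head over ovary 22 were higher and 1 lower (39.3%). Their median log2 fold change was 2.30, 5.497 and 7.48 in these comparisons, near the members' own medians over thorax and eviscerated abdomen. The highest head over ovary were Syt4 (12.73) and Rim (12.55), which encodes an active zone scaffold, and the lowest were Nsf2 (-0.96), an NSF ATPase that takes spent SNARE complexes apart, and Liprin-alpha (0.62, but -1.63 on log2(RPKM + 0.1)), another active zone protein. The call of Liprin-alpha was also lost with library size alone (0.11) and on log2(TPM + 1) (0.55). It was lost too without head replicate 3, thorax replicate 1 or 2, or any ovary library. Nsf2 had 19.9 to 22.6 CPM in head and 40.1 to 44.0 in ovary. Thorax over eviscerated abdomen 21 were higher and 0 lower (35.5% of all genes lower), thorax over ovary 21 and 1 (40.3%), and eviscerated abdomen over ovary 11 and 2 (32.6%).

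Of 19 genes of vesicle endocytosis, 12 were called higher and 4 lower head over thorax, 13 and 2 head over eviscerated abdomen, and 12 and 5 head over ovary, beside 25.4 and 16.5%, 39.2 and 35.8%, and 46.4 and 39.3% of all genes. In the docking and endocytosis lists together, the number called lower head over thorax, 6, was 1 with library size alone, on log2(TPM + 1) and without head replicate 1, head replicate 2 or thorax replicate 1, 3 without head replicate 3 or thorax replicate 2, 2 with the replicate block and 10 on log2(RPKM + 0.1), so these calls depend on single libraries. Of all genes, 1380, 1087 and 6014 were called lower head over thorax with library size alone, on log2(TPM + 1) and on log2(RPKM + 0.1). Head over ovary, log2(RPKM + 0.1) gave 21 higher and 17 lower in both lists together, beside 3085 and 6945 of all genes. The highest head over ovary were nwk (10.05), a regulator of synaptic growth and endocytosis, and stnA and stnB (8.98), which had identical counts and are known to share a dicistronic transcript. The lowest were the clathrin adaptor subunit AP-2sigma (-1.51) and the uncoating ATPase Hsc70-4 (-1.34). The median was 0.68 head over ovary, far under the members' median of 9.24, though Csp, Rop, unc-13 and Syx1A had only 1.01 to 2.85. Of 22 general SNARE and Sec1/Munc18 genes, 3 were higher and 3 lower head over thorax, 7 and 13 head over eviscerated abdomen, and 4 and 10 head over ovary, with a median of -0.18. Syx4 (2.81) and Syx6 (0.77, but -1.50 on log2(RPKM + 0.1)) were the highest head over ovary, and membrin (-1.95) and Syx18 (-1.78), SNAREs of the early secretory pathway, the lowest. Syx4 lost its call on log2(RPKM + 0.1) (0.51), and Syx6 with library size alone (0.25).

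The 10 genes outside the members whose log2 CPM over the 12 libraries followed the members' mean standardised level most closely were rdgA, NetB, CG15097, shakB, Ac3, CG15431, SK, rut, CG42346 and jim, with Pearson's r between 0.995 and 0.999. All 12 points are shared by every gene and fall into 4 tissues, and 772 of 11178 genes exceeded 0.95, so the order within this list is fragile: 1 of the 10, jim, was also in the 10 closest on log2(TPM + 1). rdgA, a diacylglycerol kinase known for its role in photoreceptors, averaged 1242 CPM in head, 222 in thorax, 35.4 in the eviscerated abdomen and 14.9 in ovary. The closest single gene to Syt1 was slo, a calcium-activated potassium channel, with 584 CPM in head, 122 in thorax, 2.82 in the eviscerated abdomen and 0.172 in ovary. To Syx1A it was AGO1, the miRNA Argonaute, with 739.5 CPM in head, 394 in thorax, 198 in the eviscerated abdomen and 239 in ovary, the same order of tissues as Syx1A. The others were IA-2 for nSyb, scrt for Snap25, CG13928 for brp, Pal2 for Rop, CG17816 for unc-13, CG30116 for cpx, fipi for Syn and ttv for Csp. Among the members the correlation of log2 CPM with the other members was lowest between cpx and Csp, at r = 0.62 over the 12 libraries.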

How the data were processed

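Total RNA-seq of 4 tissues was analysed from 2 tables of the same 12 libraries. For the first, the authors mapped reads to the fly genome (dm3) with TopHat2 (2.0.10 in the submitters' processing notes, which also name CASAVA 1.8) and used easyRNASeq to assign them to gene models. Its values were deposited as raw counts. The second holds RPKM values, for which the authors divided by totals unlike the sums of the deposited counts. The use of strand in counting and the batches of the authors' own model are not given in the sources used here. Tables of fat bodies hold repeats and were not used here, nor were the authors' fold changes and p-values in them. The total of 0 columns was left out of the tissue tables.

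Counts were tested in R 4.3.3 with edgeR 4.0.16 (quasi-likelihood test, TMM factors, filterByExpr, 1 mean per tissue, all 12 libraries, Benjamini-Hochberg adjustment over 11188 genes, calls at an adjusted p of 0.05). Fold changes are edgeR's with a prior count of 0.125, and a standard error is the log2 fold change divided by the root of its F statistic. TPM was computed from the counts and the gene lengths implied by the ratio of counts to RPKM. Intervals of pooled counts are exact at 95% and cover counting error only. DESeq2 1.42.0, limma 3.58.1 on log2(RPKM + 0.1), log2(RPKM + 1) and log2(TPM + 1), other filters and scalings, a replicate block and leaving out each library were the alternatives. The fit was tested on simulated data. Replicates differed beyond sampling noise, with a chi-square per degree of freedom between 4.85 (ovary replicates 2 and 3) and 124 (eviscerated abdomen replicates 1 and 2). Thorax replicate 3 gave 50.9 and 39.5 against the other thorax libraries, which gave 14.3 between them. All libraries were kept. Figures were drawn in Python 3.11.15 with matplotlib 3.10.9.

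Members and lists were chosen with earlier results of these data known. The text names all 10 members, the general relatives of members, the 2 highest and 2 lowest genes of each other list head over ovary, the 10 genes closest to the members' mean standardised log2 CPM (prior count 2) and the gene closest to each member. IDs of 13376 of the 13898 genes matched a symbol, and nSyb was matched by its ID.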

Additional observations from a re-analysis of the deposited data

How the results depend on the processing

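Of 1380 values (60 results under 23 alternatives), 1300 kept their direction and side of the threshold, 18 lost and 23 gained a call, and 39 changed sign. With the replicate block 10, 10, 10, 8, 8 and 6 members were called higher in the 6 comparisons, as without it, and leaving out any library gave the same counts. Same-numbered libraries of different tissues deviated together only weakly (r over 0.1 in 3 of 18 pairs, -0.18 to 0.13). The library deviating most alike had the same number in 5 of 6 cases head over eviscerated abdomen. It did in 4 of 6 head over ovary and thorax over eviscerated abdomen, and in 1 or 2 of 6 in the other comparisons. Whether replicate numbers mark pairs was not settled. On log2(RPKM + 0.1) and log2(RPKM + 1), 6 members were called higher head over ovary, beside 3085 and 2852 of all genes. On log2(RPKM + 1) 2 members were called higher eviscerated abdomen over ovary, beside 1464 of all genes. On log2(RPKM + 0.1) and log2(RPKM + 1), in that order, the log2 fold change was -0.17 and -0.16 for Rop head over thorax. Head over ovary it was -0.28 and -0.26 for Rop, -1.27 and -1.22 for Csp, -1.63 and -1.43 for Liprin-alpha, and -1.50 and -1.36 for Syx6. Thorax over ovary these 2 scales gave -0.070 and -0.067 for Syx1A, -0.11 and -0.099 for Rop, -1.17 and -1.07 for unc-13, and -1.30 and -1.25 for Csp. The median of all genes moved to -0.73 (head over thorax), -1.95 (head over ovary), -1.14 (thorax over ovary) and -1.74 (eviscerated abdomen over ovary) on log2(RPKM + 0.1). With library size alone, unc-13 was -0.024 and Csp -0.27 thorax over eviscerated abdomen, and -0.48 and -0.68 thorax over ovary. log2(TPM + 1) gave -0.27 for unc-13 and -0.41 for Csp thorax over ovary, where Csp was -0.045 without a filter and -0.039 with only the 2 tissues. Eviscerated abdomen over ovary, upper quartile factors gave 0.052 for Rop, 0.022 for unc-13 and 0.094 for Csp, and DESeq2 0.00030 for Csp. Leaving out libraries gave 0.04 to 0.66 (unc-13, thorax over eviscerated abdomen), -0.13 to 0.32 (unc-13, thorax over ovary), -0.10 to 0.0052 (Csp, thorax over ovary), -0.50 to 0.13 (unc-13, eviscerated abdomen over ovary) and -0.34 to -0.024 (Csp there). Syx1A eviscerated abdomen over ovary ran between -0.85 and -0.24 and was called lower without eviscerated abdomen replicate 2 or ovary replicate 2, and Rop (-0.38 to -0.14) without ovary replicate 2. The causes were not tested. With 1 Syt1, 8 nSyb and 8 Snap25 reads in ovary, depth limits their levels there.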
